A study of Mus musculus with 2 samples.

Results

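The first intron of a protein-coding gene lies between exon 1 and exon 2, downstream of the promoter. For each autosomal protein-coding gene of GENCODE M21 (GRCm38), the longest transcript tagged appris_principal was taken, and its first intron was kept when it was at least 5 kb long. The first 2 kb of each intron were left out, to keep out the region next to the promoter of that transcript. Start sites of other transcripts or genes inside the intron were kept. Of 20807 autosomal protein-coding genes, 19441 had an intron in that transcript, and 7182 of these had a first intron of at least 5 kb. Of the 7182 first introns, 6697 were followed by at least 1 more intron in the same transcript, and these later introns were the comparison. The rule for the introns used the annotation and no measured value. The rule and the gene lists used below were set with earlier results of these data known.

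CG methylation was measured by whole-genome bisulfite sequencing (WGBS) in primary osteoblasts from the calvaria, the flat bones of the skull roof, of 3-day-old C57BL/6 mice after 3 days of culture. One library, with no replicate, came from wild-type (WT) mice, whose label gives no alleles. The other, also alone, came from mice that are Tet1fl/fl, Tet2fl/fl and Tet3fl/fl and carry Prx1-Cre (TCKO). Prx1-Cre is active in limb and skull mesenchyme and there deletes the floxed parts of all 3 Tet genes. How many animals went into a library is not given in the sources used here. Every test therefore sets one library against the other and says nothing of the spread between animals, and every interval covers counting error only.

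TET1, TET2 and TET3 oxidize 5-methylcytosine (5mC) to 5-hydroxymethylcytosine (5hmC), a step towards loss of the methyl group. In mammals most of the gene body is highly methylated, while active promoters and enhancers are low in methylation. First introns of many genes hold enhancers and other regulatory elements, often near the start of the gene. Bisulfite conversion reads 5mC and 5hmC alike, so the CG methylation level here is the share of CG calls that were either.

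In the whole data, the WT library held 261062118 CG calls and the TCKO library 223581206 on the nuclear chromosomes, which is 5.97 and 5.11 calls for each CG cytosine in the genome sequence. In each Tet gene, the run of 500 bp windows in which TCKO fell to 25% or less of the WT calls held 122 to 755 calls in WT and 9 to 70 in TCKO. Within 500 bp of the transcription start site (TSS), the osteoblast genes Runx2, Sp7, Col1a1 and Col1a2 had levels of 0% to 5.13% in WT. The blood genes Ptprc and Cd3e had 76.8% and 81.03% there, the endothelial gene Pecam1 56.5% and the muscle gene Myod1 17.6%. A level at a TSS does not measure expression or the purity of the culture, and the makeup of the 2 cultures was not measured.

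The bins that differed most between the libraries inside first introns are shown before the values. They were chosen among 200 bp bins with 8 or more CG cytosines and 40 or more calls in both libraries. Each is printed 5′ to 3′ on the plus strand of GRCm38, with its CpGs in capitals, and none overlapped an annotated exon. They show how large the change could be at single elements, and are extremes by the way they were chosen. The first lies at chr12:40383801-40384000 in Zfp277, a zinc finger gene. It had a level of 0% in WT (47 calls, 95% Wilson interval 0% to 7.56%) and 93.7% in TCKO (63 calls, 84.8% to 97.5%). It holds the string TGAGTCA of the bZIP family.
Zfp277: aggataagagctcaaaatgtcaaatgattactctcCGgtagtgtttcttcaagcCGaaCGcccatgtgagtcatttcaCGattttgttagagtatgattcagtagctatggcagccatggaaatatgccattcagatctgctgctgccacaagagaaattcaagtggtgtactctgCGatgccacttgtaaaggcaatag
The bin at chr11:80219001-80219200 lies 10017 bp from the TSS of Rhot1, a GTPase of the outer mitochondrial membrane. Its level was 0% in WT (56 calls, 0% to 6.42%) and 90.7% in TCKO (43 calls, 78.4% to 96.3%).
Rhot1: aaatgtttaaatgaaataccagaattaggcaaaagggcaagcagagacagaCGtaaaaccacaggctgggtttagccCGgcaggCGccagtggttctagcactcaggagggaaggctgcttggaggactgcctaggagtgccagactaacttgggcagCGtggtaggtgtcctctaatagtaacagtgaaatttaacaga
The bin at chr14:61414201-61414400 lies 25573 bp from the TSS of Kpna3, an importin of the nuclear import machinery. Its level was 6.54% in WT (107 calls, 3.20% to 12.9%) and 95.7% in TCKO (46 calls, 85.5% to 98.8%). The Rhot1 and Kpna3 bins both hold AACCACA, the Runt family string, on one of the strands. All 3 bins thus went from nearly no methylated call to nearly only methylated calls.
Kpna3: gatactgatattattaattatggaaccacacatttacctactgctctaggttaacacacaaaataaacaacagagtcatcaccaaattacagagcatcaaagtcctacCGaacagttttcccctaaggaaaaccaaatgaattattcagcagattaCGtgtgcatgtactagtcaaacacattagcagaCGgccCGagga

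First introns were higher in TCKO than in WT. With the calls of all 7182 first introns pooled and each cytosine counted once, the level was 72.5% in WT (19723832 calls) and 80.6% in TCKO (16713804 calls). The difference, called the gain below, was 8.13 percentage points, with a standard error of 0.0140 from the binomial variance and 0.0281 when the variance was taken over 500 bp blocks of cytosines. The z value was 583 and 289 with these errors. First introns of 5.0 to 5.5 kb, just inside the length limit, had 71.2% in WT and 79.1% in TCKO, and those of 4.5 to 5.0 kb, just outside it, 69.8% and 76.1%.

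The rise was seen in most first introns. Of the 7182, 7140 had at least 100 calls in each library and were tested by Fisher's exact test (2-sided), and p-values were adjusted by Benjamini-Hochberg over all first and all pooled later introns. Of these, 5470 were higher in TCKO at an adjusted p below 0.05 (76.6% of those tested) and 60 were lower (0.84%). With the block variance in place of the Fisher test, 4896 were higher and 48 lower. Over the 7140 introns the median level was 73.6% in WT and 82.8% in TCKO, and the median gain was 7.50 points, with 5% of introns below -0.96 and 5% above 17.4 points. Regardless of any test, 6650 first introns (93.1%) had a higher level in TCKO.

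In WT, first introns had a lower level than the later introns of the same transcripts. For the 6697 transcripts with both, pooled first introns had 72.6% in WT (95% Wilson interval 72.55% to 72.59%) and later introns 74.8% (74.76% to 74.78%), a difference of -2.20 points (block standard error 0.0482, z = -45.6). In TCKO the levels were 80.8% and 82.0%, and the difference was -1.20 points (block standard error 0.0389, z = -30.7). Per gene, over the 6369 genes with at least 100 calls in both regions and libraries, 2622 (41.2%) had a lower WT level in the first intron by the Fisher exact test at an adjusted p below 0.05, and 1241 had a higher one. In TCKO these counts were 1743 and 995.

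First introns also gained more. The gain was 8.20 points in the first introns and 7.20 points in the later introns of these transcripts, 1 point apart (block standard error 0.0338, z = 29.6, 95% interval 0.93 to 1.07). Against the second intron alone the difference in gain was 0.34 points and the WT difference -1.01 points. Against later introns of at least 5 kb, each also without its first 2 kb, these were 0.72 and -1.05 points. With cytosines within 2 kb of any TSS left out, the difference in gain was 0.98 points and the WT difference -1.69 points. By gene, the median gain was 7.64 points in the first intron and 6.55 points in the later introns, and 3878 of the 6369 genes (60.9%) had the larger gain in the first intron.

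By the z test on each gene, 1351 genes (21.2% of the 6369 tested) gained more in the first intron at an adjusted p below 0.05 and 548 (8.6%) gained less. With the block variance, which keeps calls of neighbouring cytosines together, 223 gained more and 98 gained less. For comparison, 5301 of the 6385 later introns tested (83%) were higher in TCKO. Later introns held more calls, with a median of 2978 in WT (6369 genes) against 1252 in the first introns tested (7140), so the share called cannot be compared between them. Of the 1351 genes with the larger gain, 1285 had a lower WT level in the first intron than in the later introns, and of the 548 with the smaller gain, 426 had a higher one. The gain and the WT difference share the WT calls, so this is a description.

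**Figure D1:**
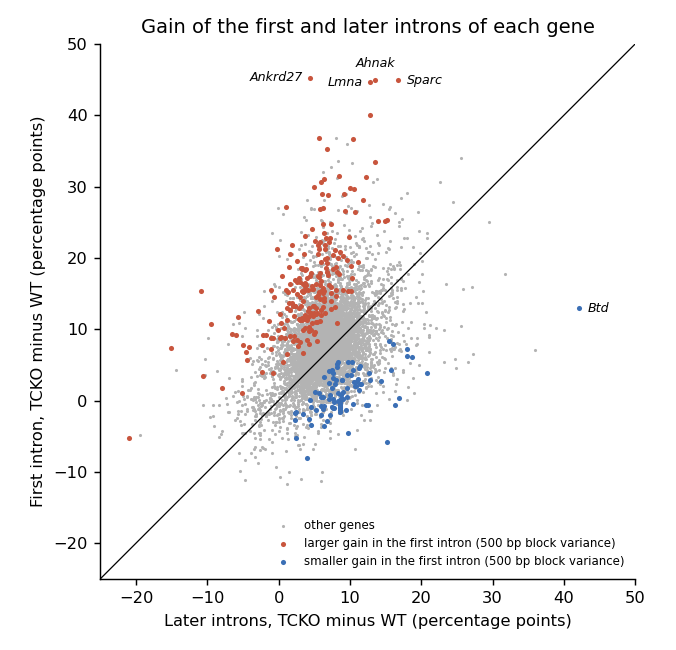
Each point is 1 of 6369 genes, with the TCKO minus WT difference of its later introns on the x axis and of its first intron on the y axis, both in percentage points. Red points are the 223 genes with a larger gain and blue points the 98 with a smaller gain in the first intron by the z test with 500 bp block variance (adjusted p below 0.05), and the line marks equal gains. Ankrd27 at 45.3 points and Btd, with 42.1 points in its later introns, lie farthest from the line.

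In WT, first introns were below later introns at every distance from the TSS at which both were measured. The 2 kinds of intron come from partly different genes at a given distance, so this comparison is not within transcripts. At 5 to 10 kb, 7182 genes gave first-intron values and 2191 gave later-intron values. At 5 to 10 kb from the TSS, first introns had 73.3% in WT and later introns 76.1%, and at 20 to 40 kb they had 73.1% and 76.7%. At more than 160 kb the levels were 69.3% and 72.7%. The gain of first introns was 8.68 points at 2 to 3 kb, 7.85 points at 5 to 10 kb and 8.47 points at 40 to 80 kb. The gain of later introns was 5.88 points at 5 to 10 kb and 7.30 points at 40 to 80 kb. At 80 to 160 kb the gains were 7.97 and 7.64 points, and beyond 160 kb, where 133 first introns reach, the order was the other way, with 6.68 points in first and 7.33 points in later introns. The binomial standard errors of these gains were at most 0.0862 points.

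**Figure D2:**
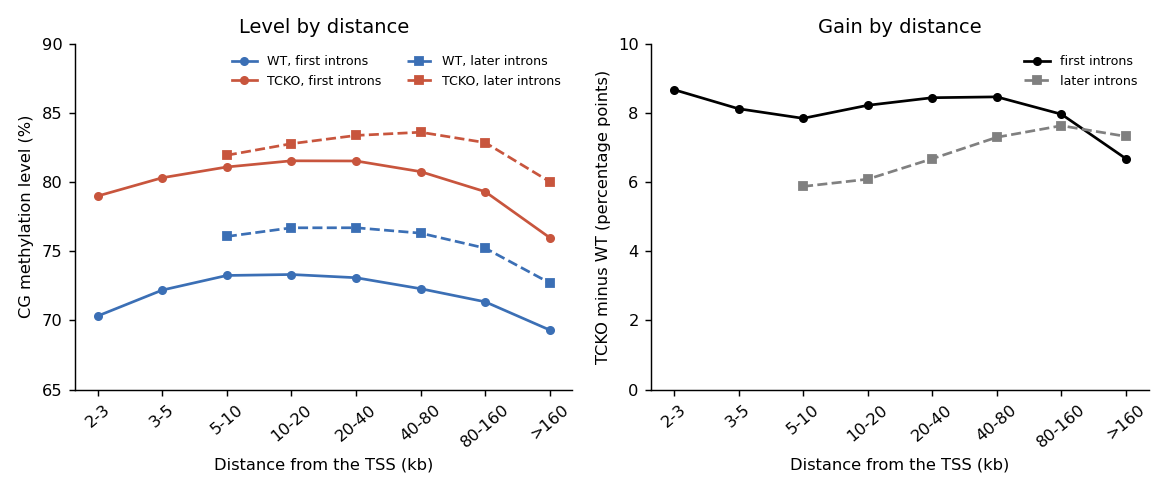
The left panel plots the pooled CG methylation level (%) by distance from the TSS (kb) in WT (blue) and TCKO (red), with first introns as solid lines and later introns as dashed lines. The right panel plots the TCKO minus WT difference in percentage points. There the first introns stand above the later introns from 5 to 160 kb (7.85 against 5.88 points at 5 to 10 kb). At a given distance the solid and dashed lines come from partly different genes.

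Next to exon 2 the order was the same. In 5816 genes, the last 5 kb of the first intron were set against the first 5 kb of intron that follow exon 2. The first 2 kb of the first intron stayed left out, so the shortest first introns gave less than 5 kb. The level was 73.5% in WT and 81.8% in TCKO before exon 2, and 76.3% and 83.0% after it. The gain was 8.27 points before and 6.73 points after, 1.55 points apart (block standard error 0.0951). Within the first introns, cut into 10 equal parts, the part nearest the start had 71.1% in WT and the other parts 72.3% to 72.8%, and the gains of the 10 parts were 7.77 to 8.36 points.

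Among whole later introns, the WT level was higher at higher intron numbers. In the same transcripts, the second introns had 73.6% in WT, the third 74.0%, the fourth 74.6%, the fifth 74.8% and those beyond the tenth 75.5%. Their gains were 7.86, 7.27, 7.31, 6.94 and 6.90 points. The values for higher numbers come from fewer genes, 2914 for introns beyond the tenth. When later introns were treated as the first introns were, at least 5 kb long and without their first 2 kb, the WT level was 73.1% in the second introns, 73.4% in the third, 73.7% in the fourth and the fifth, 74.3% in the sixth to the tenth and 73.9% beyond the tenth. The spread between intron numbers was smaller there, and the level did not rise at each step. Second introns treated in this way gained 8.07 points (2575 genes), close to the 8.20 points of the first introns (6697 genes). The third gained 7.46, the fourth 7.62 and the fifth 7.21 points. Those from the sixth to the tenth gained 7.23 points, and those beyond the tenth 7.27 points.

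First introns were grouped by their length. The gain was 7.45 points in those of 5 to 10 kb, 7.78 points at 10 to 20 kb, 8.69 points at 20 to 50 kb, 8.74 points at 50 to 100 kb and 7.57 points in the 358 longer ones. The WT level lay between 71.01% and 73.5% in these 5 groups. Set against the later introns of the same transcripts, the gain was larger by 0.95 points at 5 to 10 kb (block standard error 0.113), by 1.28 points at 50 to 100 kb (0.0781) and by 0.32 points above 100 kb (0.0642).

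First introns were also grouped by their CpGs per kb, in 4 groups of nearly equal size. The gain was 6.46 points in the group with the fewest CpGs, 8.15 and 8.86 points in the middle groups, and 8.92 points in the group with the most, above 11.4 CpGs per kb. This last group had the lowest WT level, 70.8%, and had the largest WT difference to its later introns, -4.18 points (block standard error 0.119). From the fewest to the most CpGs, the excess of the gain over the later introns was 0.54, 0.70, 1.24 and 0.72 points, largest in the third group.

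The excess gain of first introns differed with the level at the start site. In a grouping added after the data were seen, members were grouped by the WT level within 500 bp of the TSS, which 7015 of them had with at least 20 calls in each library. Among genes with a level below 20% there, first introns went from 73.1% in WT to 81.5% in TCKO and later introns from 75.5% to 82.8% (4938 genes), so the gain was larger by 1.18 points (block standard error 0.0374). Among genes with a level of 20% to 60% at the TSS it was -0.12 points (0.105, 878 genes), and among genes at 60% or above it was -0.42 points (0.120, 747 genes). The difference between the lowest and the highest group was 1.60 points (block standard error 0.126, z = 12.7). Without first introns that hold the TSS of another protein-coding gene, the 3 values were 1.27, 0.43 and 0.07 points, and the difference was 1.20 points (0.133).

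By autosome, the gain of first introns was 6.89 to 8.81 points. In WT the first introns were below the later introns on 19 of 19 autosomes, with differences of -1.16 points on chromosome 10 to -5.11 points on chromosome 18. The gain was larger in the first introns on 16 of 19 autosomes. On chromosomes 5, 13 and 18 the difference in gain was -0.03, -0.02 and -0.07 points, and no test was run by autosome.

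At the scale of 200 bp, part of the sequence of first introns changed strongly. Bins were tested if they held 4 or more CG cytosines with 4 or more calls per cytosine on average in both libraries, and a bin was called a hyper bin when the Fisher exact test gave an adjusted p below 0.05 over all testable bins of the genome and TCKO was higher by over 40 points. Of 200203 testable bins in first introns, 7918 were hyper bins, a share of 3.95% (95% Wilson interval 3.87% to 4.04%). In later introns the share was 3.21% (3.16% to 3.26%), and over all 2534629 testable bins it was 2.86%. Bins that were lower in TCKO by the same rule numbered 42 in first introns. Of the 7055 members with a testable bin, 2620 (37.1%) had at least 1 hyper bin and 462 had at least 5. The median hyper bin of first introns had a level of 26.7% in WT and 82.5% in TCKO, close to the 27.5% and 82.6% of those in later introns.

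The bins were then compared in classes of WT level. The WT level on the plus strand, with at least 10 calls, put a bin into a class, and the calls of the minus strand gave its values, so that the class and the gain did not share calls. Of the first-intron bins, 2.68% had a plus-strand level below 20%, against 2.09% of later-intron bins, and 48.8% against 53.1% had a level of 80% or above. In the lowest class, first-intron bins went from 16.1% to 52.0% and gained 35.9 points (binomial standard error 0.220), and later-intron bins gained 36.9 points (0.163). At 20% to 40% the gains were 27.3 and 27.1 points. At 40% to 60% they were 15.3 and 14.9, at 60% to 80% 7.79 and 7.53, and at 80% or above 3.76 and 3.44 points. First introns thus gained less than later introns in the lowest class and more in the classes from 40% up. At 20% to 40% the gains were close, with binomial standard errors of 0.187 and 0.134 points. First introns had a larger share of their bins in the 4 lower classes. Their minus-strand WT level was slightly lower in each class, from 16.1% against 16.8% in the lowest to 84.8% against 85.3% in the highest. These differences by class are given as a description, and how much of the excess gain goes with the WT level was not tested.

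**Figure D3:**
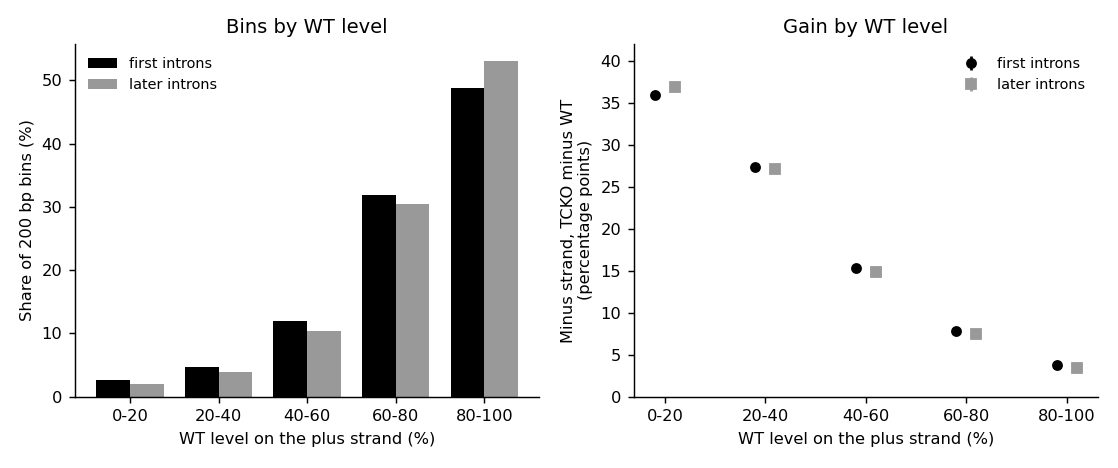
The left panel plots the share (%) of 200 bp bins of first introns (black) and later introns (grey) by their WT level on the plus strand, and the right panel plots the TCKO minus WT difference on the minus strand in percentage points, with bars of 95% binomial intervals that are mostly smaller than the symbols. First introns have fewer bins at 80% or above (48.8% against 53.1%), and the gain falls with the WT level in both, from 35.9 points in first and 36.9 points in later introns to 3.76 and 3.44 points.

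Strings known from transcription factor families were counted in these bins on both strands. TGACTCA or TGAGTCA (bZIP), which are reverse complements of each other, stood in 8.79% of the hyper bins of first introns, in 3.16% of all testable first-intron bins, in 8.92% of the hyper bins of later introns and in 3.01% of all testable bins. AACCACA (Runt) stood in 9.30%, 5.33%, 9.40% and 5.00% of these, CATTCCA (TEAD) in 5.53%, 3.18%, 5.58% and 3.19%, and CAGCTG (bHLH) in 9.96%, 6.77%, 9.66% and 6.25%. The 95% Wilson intervals of hyper bins of first and of later introns overlapped for each of the 4 families. A string in a bin is a description and does not show a bound factor.

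The 8 first introns with the largest called rise, with at least 200 calls in each library, were those of Ankrd27, Ahnak, Sparc, Lmna, Vasn, Tnn, Lgals3 and Hnrnpc. Sparc encodes osteonectin, an abundant collagen-binding protein of bone matrix. Its first intron (ENSMUSG00000018593, chr11:55409998-55419787, minus strand) had a level of 23.6% in WT (584 calls, 95% Wilson interval 20.4% to 27.2%) and 68.5% in TCKO (531 calls, 64.5% to 72.4%). The 8 later introns of Sparc went from 70.8% to 87.6%, so the gain was 28.1 points larger in the first intron (standard error 3.28, adjusted p = 1.3e-15 by the z test with binomial variance, 3.7e-05 with block variance). All 8 of its 1 kb windows were higher in TCKO by over 20 points.

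Lmna encodes the nuclear lamins A and C. Its first intron (ENSMUSG00000028063, chr3:88488432-88502747, minus strand) went from 23.9% in WT (1417 calls) to 68.5% in TCKO (1435 calls), while its later introns went from 63.9% to 76.6%. All 13 of its windows were higher by over 20 points, and the largest gain, from 6.90% to 80%, lay 8.09 kb from the TSS. Of 15 testable bins, 7 were hyper bins.

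Ankrd27 encodes a regulator of endosomal transport. Its first intron (ENSMUSG00000034867, chr7:35586370-35591751, plus strand) had the largest rise, from 40.1% (668 calls) to 85.4% (561 calls), and the largest excess over the later introns, 40.9 points (standard error 2.51, adjusted p = 5.8e-56 by the z test with binomial variance, 0.0014 with block variance). Its later introns went from 86.4% to 90.7%. Within 500 bp of its TSS the level was 0% in both libraries, with 139 calls in WT and 96 in TCKO.

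Ahnak encodes a very large scaffold protein. Its first intron (ENSMUSG00000069833, chr19:8989430-8999661, plus strand) went from 30.4% to 75.4% and its later introns from 70.4% to 84.0%. Vasn, for a cell surface protein that binds TGF-beta, has no later intron, and its first intron went from 28.1% to 68.4%. Lgals3, for galectin-3, went from 47.9% to 84.8%, and Hnrnpc, for a protein that binds nascent RNA, from 49.6% to 86.5%. Cry2, for a repressor of the circadian clock, went from 42.4% to 77.8% in its first intron and from 79.6% to 86.4% in its later introns. With block variance the excess gain of the first intron was called in Ahnak, Hnrnpc and Cry2 but not in Lgals3 (adjusted p = 0.085, against 7.4e-10 with binomial variance). In these genes the first intron was far below the later introns in WT and close to them or below them in TCKO.

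**Figure D4:**
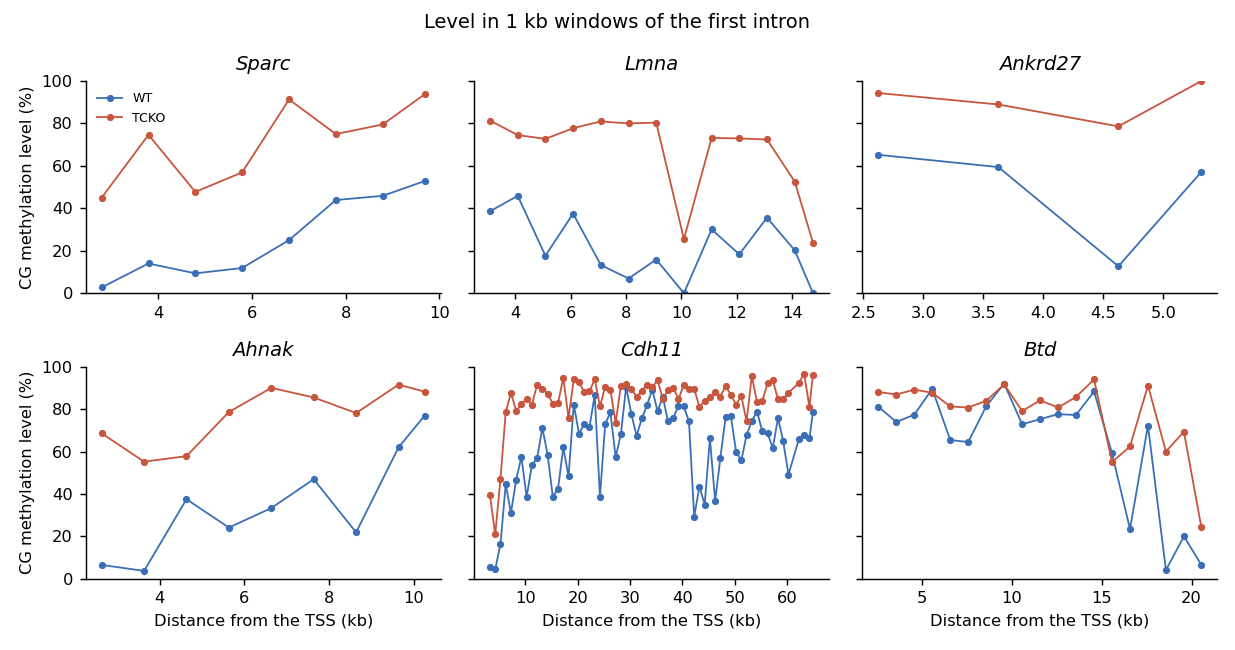
Each panel plots the CG methylation level (%) in 1 kb windows of a first intron by distance from the TSS (kb), in WT (blue) and TCKO (red), for windows with at least 10 calls in each library. In Sparc, Lmna and Ankrd27 all windows are higher in TCKO by over 20 points, in Ahnak 8 of 9 are, in Cdh11 30 of 62 are, and in Btd 3 of 19 are, all in the part far from the TSS.

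The 4 largest called falls were smaller in size. The first intron of Pura, for a nucleic acid binding protein, had 71.1% in WT (426 calls) and 52.6% in TCKO (407 calls), but the difference was called by the Fisher exact test (adjusted p = 7.5e-08) and not with block variance (adjusted p = 0.15). Olfr635, an olfactory receptor gene, fell from 69.7% to 58.2%, with an adjusted p of 0.00061 by the Fisher exact test and 0.0033 with block variance. Slc10a2, for the ileal bile acid transporter, fell from 57.9% to 46.8%, and Zfp708, a zinc finger gene, from 88.3% to 77.6%. None of the 4 first introns held a hyper bin, but they had only 1 to 4 testable bins each. Of all members with a testable bin, 37.1% had a hyper bin.

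The 6 genes whose first intron gained least relative to the later introns were Btd, Dcstamp, Tlr4, Nlrc3, Ucp3 and Nectin4. Btd encodes biotinidase, which recycles biotin. Its first intron (chr14:31641136-31662069, plus strand) went from 63.3% to 76.3% and its later introns from 41.7% to 83.8%, so the difference in gain was -29.2 points (standard error 2.86, adjusted p = 6.1e-22 by the z test with binomial variance, 0.038 with block variance). In Dcstamp, needed for the fusion of osteoclasts, the first intron had 71.2% and 76.5% and the later introns went from 56.2% to 82.8%. In Tlr4, the receptor for bacterial lipopolysaccharide, they went from 84.1% to 90.7% and from 54.5% to 81.8%. In Nlrc3 the first intron stood at 78.4% in WT and 78.5% in TCKO, while the later introns went from 62.5% to 80.6%. In Ucp3 it stood at 84.4% and 85.4%, and in Nectin4 at 69.7% and 75.04%. The difference in gain was not called with block variance in the 5 genes other than Btd (adjusted p 0.12 to 0.24).

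Of 30 genes of the osteoblast list, 9 had a first intron of at least 5 kb, and all 9 were higher in TCKO by the Fisher exact test and with block variance. Over all first introns tested, 76.6% were called higher by the Fisher exact test and 4896 of 7140 with block variance. The median gain of the 9 genes was 19.9 points, against 7.50 points over all members. In the 8 with later introns tested, the later introns had a median gain of 12.3 points, against 6.55 over all members. The median difference in gain between first and later introns was 4.39 points, against 1.12 over all members. Sp7, the transcription factor osterix, has no later intron. Its first intron (chr15:102359403-102366213, minus strand) had 43.6% in WT (562 calls, 39.6% to 47.7%) and 69.1% in TCKO (404 calls, 64.4% to 73.4%). Tnn, for tenascin-W of the periosteum, went from 38.1% to 78.1%, and its TSS region from 25.8% (159 calls) to 82.4% (142 calls). Cdh11, for osteoblast cadherin, has a first intron of 64365 bp (chr8:102720531-102784895, minus strand) that went from 61.1% (6840 calls) to 82.5% (6168 calls), with 12 hyper bins among 81 and 61 of 62 windows higher in TCKO. Its later introns went from 72.9% to 88.3%, and the excess of the first intron, 6.10 points, was called with binomial variance (adjusted p = 5.3e-09) and not with block variance (adjusted p = 0.077).

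Pth1r, the receptor for parathyroid hormone, went from 56.3% to 76.1% in its first intron. Tnfrsf11b, for osteoprotegerin, which blocks osteoclast formation, went from 73.0% to 84.8%. Smpd3, for the neutral sphingomyelinase of matrix mineralization, went from 69.3% to 78.1%. Alpl, for the alkaline phosphatase of mineralizing bone, went from 74.3% to 82.9%, and Mef2c, a transcription factor of muscle and bone, from 68.2% to 75.4%. Along the first intron of Alpl, 26 of 36 windows of 1 kb were higher in TCKO, 8 of them by over 20 points, and the window 2.64 kb from the TSS had the largest gain, from 9.38% to 78.6%. In Sparc and Tnn the gain was larger in the first intron than in the later introns with both variances, while in Alpl and Mef2c the values of this difference were -3.09 and -3.50 points and not called.

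**Figure D5:**
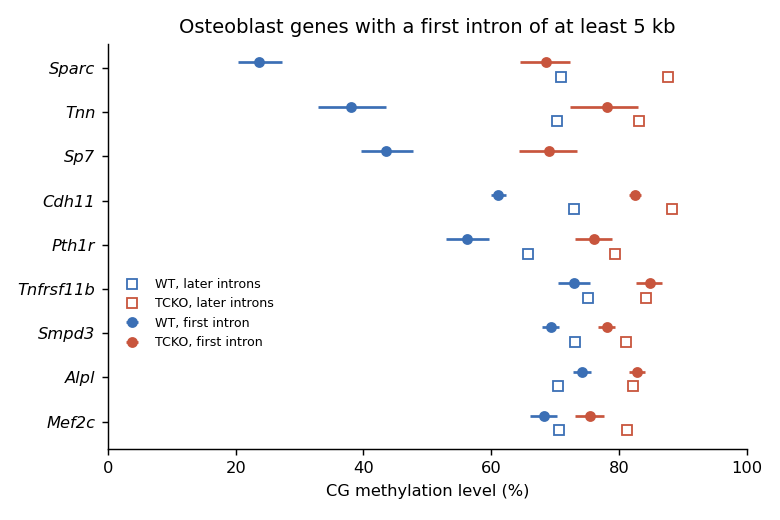
Points give the CG methylation level (%) of the first intron of the 9 osteoblast genes in WT (blue) and TCKO (red), with 95% Wilson intervals, and open squares give the pooled later introns, which Sp7 lacks. In Sparc, Tnn and Cdh11 the WT first intron lies far to the left of the WT later introns, with 23.6% against 70.8% in Sparc.

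Hyper bins were found in 5 of these 9 genes, beside 37.1% of all members with a testable bin. The 5 genes had 3 to 81 testable bins and the others 6 to 15. The bin with the largest difference in each is printed because it shows where in a bone gene the level changed. The Alpl bin at chr4:137779801-137780000, 16483 bp from the TSS, had 3.45% in WT (29 calls, 0.61% to 17.2%) and 100% in TCKO (18 calls, 82.4% to 100%), and holds a bZIP and a TEAD string.
Alpl: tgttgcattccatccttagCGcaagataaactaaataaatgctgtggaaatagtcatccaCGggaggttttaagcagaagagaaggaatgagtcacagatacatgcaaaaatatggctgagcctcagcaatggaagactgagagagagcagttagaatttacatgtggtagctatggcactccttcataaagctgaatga
The Cdh11 bin at chr8:102778601-102778800, 6941 bp from the TSS, had 14.3% in WT (35 calls) and 88.9% in TCKO (27 calls). It holds none of the strings.
Cdh11: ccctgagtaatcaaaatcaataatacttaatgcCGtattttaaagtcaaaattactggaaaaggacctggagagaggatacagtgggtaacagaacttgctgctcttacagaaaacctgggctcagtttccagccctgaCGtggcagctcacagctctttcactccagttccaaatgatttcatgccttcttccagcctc
The Sparc bin at chr11:55410601-55410800, 9379 bp from the TSS, had 29.2% in WT (24 calls, 14.9% to 49.2%) and 95.5% in TCKO (22 calls, 78.2% to 99.2%). It holds none of the strings.
Sparc: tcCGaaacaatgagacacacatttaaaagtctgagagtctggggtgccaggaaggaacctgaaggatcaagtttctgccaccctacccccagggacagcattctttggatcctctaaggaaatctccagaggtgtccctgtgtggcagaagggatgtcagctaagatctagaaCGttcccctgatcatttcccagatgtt
The Smpd3 bin at chr8:106321201-106321400, 16687 bp from the TSS, had 9.52% in WT (42 calls) and 75.6% in TCKO (45 calls), and holds the Runt string.
Smpd3: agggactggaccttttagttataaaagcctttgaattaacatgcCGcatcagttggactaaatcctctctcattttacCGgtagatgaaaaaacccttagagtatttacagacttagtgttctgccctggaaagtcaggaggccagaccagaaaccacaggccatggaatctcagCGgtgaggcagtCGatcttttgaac
The Tnn bin at chr1:160148601-160148800, 4879 bp from the TSS, had 44.7% in WT (38 calls) and 97.1% in TCKO (35 calls). It holds none of the strings.
Tnn: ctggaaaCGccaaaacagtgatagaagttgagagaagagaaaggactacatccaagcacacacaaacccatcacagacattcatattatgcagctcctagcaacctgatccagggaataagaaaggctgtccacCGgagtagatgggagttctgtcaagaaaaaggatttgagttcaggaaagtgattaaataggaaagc

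Of 32 genes of skeletal signalling, 22 were members. Of these, 21 were higher in TCKO and 1 was lower, and with block variance 20 were higher and 0 lower. Over all first introns tested, 76.6% were called higher by the Fisher exact test, and 4896 of 7140 were higher with block variance. The median gain of the list was 11.9 points, against 7.50 points over all members. Its later introns were also raised, with a median gain of 10.8 points against 6.55 over all members. The median difference in gain between first and later introns was 1.28 points, against 1.12 over all members. Fgfr1, a receptor for fibroblast growth factors, went from 65.9% to 85.3%, and Notch2, a Notch receptor, from 55.3% to 74.1%. The first intron of Wnt5a, for a non-canonical Wnt ligand, is rich in CpGs (43.4 per kb). Its level was 31.1% in WT (1061 calls) and 26.0% in TCKO (696 calls), with an adjusted p of 0.031 by the Fisher exact test and 0.18 with block variance.

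All 7 chondrocyte genes among the members were called higher by the Fisher exact test, where 76.6% of all first introns tested were. With block variance 6 were, where 4896 of all 7140 were. The median gain of the 7 genes was 12.6 points. Trps1, a repressor of cartilage maturation, went from 70.1% to 86.0%, Sox5, which acts with Sox9 in cartilage, from 65.7% to 78.9%, and Runx3 from 64.995% to 71.03% (adjusted p = 2.8e-06 by the Fisher exact test, 0.071 with block variance). The TSS region of Runx3 had 24.6% in WT (203 calls) and 78.6% in TCKO (248 calls).

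Among the 9 adipocyte genes, 5 were called higher by the Fisher exact test, against 76.6% of all first introns tested. The count was also 5 with block variance, against 4896 of all 7140. Their median gain was 8.07 points. Cd36, a fatty acid transporter, went from 62.5% to 78.5%, and its gain was 12.4 points larger than that of its later introns (adjusted p = 7e-09 by the z test with binomial variance, 0.0011 with block variance). Zfp423, a regulator of preadipocytes, went from 68.0% to 80.4%. Lipe, for hormone-sensitive lipase, stood at 79.8% in both libraries, while its later introns went from 73.9% to 84.9%.

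The housekeeping list had 13 members, of which 11 were called higher by the Fisher exact test, against 76.6% of all first introns tested. With block variance 9 were, against 4896 of all 7140, and the list had a median gain of 11.8 points. The small GTPase genes Cdc42 and Rhoa went from 62.1% to 86.5% and from 68.3% to 87.5%. Psmd1, for a proteasome subunit, stood at 90.8% and 91.4%. In the later introns the median gain was 6.95 points in chondrocyte, 6.46 in adipocyte and 6.99 in housekeeping genes. No test set any list against another.

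The neuronal synapse list had 13 members with long first introns. Of these, 12 were called higher by the Fisher exact test, beside 76.6% of all first introns tested. With block variance 11 were, beside 4896 of all 7140, and the median gain was 6.15 points. The later introns of these genes had a median gain of 7.12 points. Ctnna2, for alpha-N-catenin, went from 71.1% to 81.8%, and Csmd1 from 63.7% to 65.3%. Of the 2575 testable bins in these introns, 1.63% were hyper bins, against 3.88% over all members. In the other lists the share was 9.55% in the osteoblast members (220 bins), 8.48% in skeletal signalling, 8.25% in chondrocyte, 7.83% in housekeeping, 7.41% in adipocyte, 6.13% in blood and 5% in DNA methylation machinery genes, and 0 of 71 bins in the muscle genes. The share was thus above that of all members in the skeletal lists and several others, and below it in the neuronal synapse and muscle lists. Bins that lie in overlapping members are counted for each of these. Of 3 muscle genes, 2 were called higher, with 8.42 points in Actn2 and 6.70 points in Sgcd, and Ryr1 had 5.16 points (adjusted p = 0.067 by the Fisher exact test).

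Of 5 blood genes, 4 were called higher by the Fisher exact test, beside 76.6% of all first introns tested. The count was also 4 with block variance, beside 4896 of all 7140. Cd34 went from 65.7% to 86.2% and Bach2 from 71.6% to 83.4%. The first intron of Pax5, the regulator of B cell identity, stood at 19.5% in WT (1612 calls) and 18.5% in TCKO (1390 calls), low in both libraries, while its later introns went from 64.1% to 71.9%. The difference in gain was -8.80 points (adjusted p = 2.1e-07 by the z test with binomial variance, 0.0037 with block variance).

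Of the DNA methylation machinery, 5 genes were members. All 5 were called higher by the Fisher exact test, beside 76.6% of all first introns tested. With block variance 3 were, beside 4896 of all 7140. The maintenance methyltransferase Dnmt1 went from 70.1% to 84.8%, the de novo methyltransferase Dnmt3a from 67.7% to 81.0%, and Tdg, the glycosylase that removes oxidized 5mC, from 89.4% to 93.0% (adjusted p = 0.041 by the Fisher exact test, 0.064 with block variance).

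The longest first introns came from unusual gene models. That of Gm20388, with 4384418 bp on chromosome 8, spans other genes and went from 68.5% to 75.02%. Those of Gm42416, Gm37013 and Gm37388 on chromosome 18 share most of their sequence, which holds the start sites of other genes, and stood near 57.5% to 57.7% in WT and 57.5% to 57.8% in TCKO. Hs6st3, for a heparan sulfate sulfotransferase, has a first intron of 729767 bp and no later intron, and went from 74.9% to 81.4%. In all, 237 members held the TSS of another protein-coding gene in their first intron. Without them the gain of first introns was 8.25 points and its excess over later introns 1.12 points.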

How the data were processed

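Genomic DNA of 1 WT and 1 TCKO library was bisulfite-treated and sequenced (HiSeq). Per the labels and the study's methods, the authors aligned reads to GRCm38 with BSMAP 2.74, allowing at most 2 mismatches and keeping uniquely mapped reads, and deposited counts of methylated and total CG calls per cytosine. CASAVA is named in the submitters' processing notes. Removal of duplicate reads is not given in the sources used here, so intervals and tests cover counting error only. The libraries held 5.97 (WT) and 5.11 (TCKO) calls per reference CG cytosine.

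Methylated and total counts were summed over each region, and a level is their ratio in percent. Levels were compared with the 2-sided Fisher exact test, and gains with a z test of the difference of 2 differences, with Benjamini-Hochberg adjustment. A second variance summed calls over 500 bp blocks. Regions needed 100 calls in each library. Intervals are 95% Wilson intervals. Python 3.11.15, numpy 2.4.6, scipy 1.17.1, pandas 2.3.3, numba 0.67.0 and matplotlib 3.10.9 were used, and the scripts were tested on simulated data.

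The members and gene lists were chosen with earlier results of these data known, and the grouping by level at the TSS and the comparison across exon 2 were added after the data were seen. Genes were named by rule: the 8 largest called rises and 4 largest called falls with at least 200 calls in each library, the 6 largest and 6 smallest called differences in gain, all osteoblast members, the 2 largest and 1 smallest difference in each other list, and the 5 longest members. Some items that these rules select are not reported here. Printed sequences come from the GRCm38 reference genome and were chosen by rule outside chromosome 18: the 3 hyper bins with the largest difference, 1 for each gene, and the largest in each osteoblast member that has one. Alternatives changed the calls kept, the transcript, the length limits, the sequence left out, the later introns used, the variance and the thresholds.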

Additional observations from a re-analysis of the deposited data

How the results depend on the processing

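Libraries could not be paired because each genotype has 1 library, and for the same reason no replicate could be left out. First and later introns could be compared within genes. As an unweighted mean over genes, the difference in gain was 1.47 points and the WT difference -2.67 points. The gain of first introns stayed positive under 12 alternatives, from 7.75 to 8.25 points. The WT difference between first and later introns was -2.73 to -1.01 points under 15 alternatives, and the difference in gain 0.34 to 1.55 points under 15, the smallest against the second intron alone. The block variance is counted among the alternatives for the gain and for both differences. It changes only their standard errors, so these values could not move under it. The count of first introns higher in TCKO was 4018 to 5567 under 14. The count of genes with a larger gain in the first intron was 850 against later introns of at least 5 kb without their first 2 kb. It was 755 against the second intron alone and 223 with block variance. For up to 5 kb before exon 2 against 5 kb of intron after it, added after the data were seen, it was 776. The count with a smaller gain was 98 with block variance and 337 at an adjusted p below 0.01. The share of first-intron bins called hyper bins was 3.58% with a mean of at least 1 call, 2.73% with at least 10, 7.97% with a limit of over 20 points and 1.09% with over 60 points. The cause of these changes was not tested. Depth limited single bins, in which the median hyper bin of first introns had 42 calls in WT and 38 in TCKO.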

Other observations

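On chromosome X, 270 first introns chosen by the same length rule had 73.4% in WT and 80.6% in TCKO, and their later introns 75.01% and 80.8%. Among the chromosome X transcripts with a later intron, the difference in gain was 1.44 points (binomial standard error 0.117) and the WT difference -1.42 points (0.0841). The 485 autosomal first introns with no later intron went from 70.7% to 77.6%.

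The 2 kb left out of each first intron had other levels. The first kb of the introns had 23.0% in WT and 28.9% in TCKO, and the kb after it 59.4% and 69.5%. The gain of 10.1 points in this kb was the largest of any distance measured here, including the 8.68 points at 2 to 3 kb from the TSS.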
